A study of Homo sapiens with 6 samples.

Results

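Long noncoding RNA genes make transcripts that are not translated into protein. Some lie between coding genes (the LINC genes), some are read from the strand opposite to a named coding gene (antisense genes, -AS), some leave a coding gene's promoter in the opposite direction (divergent transcripts, -DT), and some sit in an intron (-IT). The SNHG genes host small nucleolar RNAs (snoRNAs) in their introns, and those snoRNAs guide chemical modification of ribosomal RNA. Several such RNAs are studied in melanoma, among them LINC00518, whose transcript is used in a skin test of pigmented lesions.

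The genes described here are those with a symbol that starts with LINC0 or with SNHG and a digit, or that ends in -AS1, -AS2, -DT or -IT1, with 1 gene excepted by the rule. They number 426 of the 18417 genes with an unambiguous symbol on the array. By name they comprise 2 SNHG genes, 206 LINC genes, 176 antisense genes, 33 divergent genes and 9 intronic genes. The RefSeq annotation held 420 of them under the same gene number, each as a long noncoding RNA, and 6 were not matched. The probe set annotation listed a RefSeq transcript of the gene itself for 270 of the 426. It listed none for some genes described below, among them LIF-AS2, LINC01089 and LINC00504. For 34 genes, among them ANKRD13C-DT, LINC02903 and LINC02915, the probe set annotation lists a protein-coding (mRNA) RefSeq accession. A RefSeq transcript of another gene was found for 1 of the 426.

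Expression was measured on 6 whole-transcript arrays in WM164, a BRAF-mutant human melanoma line taken from a metastasis in a lymph node. The IDTC group (induced drug tolerant cells, 3 arrays) received PLX4032, the mutant-BRAF inhibitor vemurafenib, at 500 nM over 16 days. The Parent group (3 arrays) received the solvent DMSO, for a length of time that the labels do not give. Total RNA of each of the triplicate samples was extracted on its own. Whether the triplicates were separate experiments is not stated, so p-values measure only the spread between these samples, which may be technical. A single cell line was used, and with 3 arrays a group the precision of each value is limited.

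All values are log2 expression as deposited, and differences are IDTC minus Parent with their standard error. A gene was called, and is said to have risen or fallen, when its p from limma, adjusted by the Benjamini-Hochberg method across the 18417 genes, was under 0.05. The correlation between arrays was 0.995 to 0.998 within a group and 0.953 to 0.957 between groups. Of 7 melanocyte markers 5 rose and S100B fell by 0.85, while MITF had -0.04 and was not called, where 21.7% of all genes rose and 24.9% fell. MLANA was at 12.44, 12.35 and 12.38 in IDTC and 10.97, 10.92 and 10.93 in Parent. Among markers of other cell types, 2 of 5 for fibroblasts (LUM and PDGFRA) and 1 of 4 for immune cells (LYZ) fell, and their part in the results below was not tested.

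Some antisense and divergent genes start close to their coding partner on the opposite strand, and the DNA between the closest listed starts of a pair lies upstream of both. The 6 stretches below are shown because they lie between genes that changed in opposite directions (the first 3) or in the same direction (the last 3). They are from RefSeq on GRCh38.p14, are written in the direction of the noncoding gene, and leave out both start bases. Capitals mark a searched motif, or in URB1-AS1 a word of 14 bases present 3 times.
EIF3J-DT (chr15:44536924-44537146, minus strand): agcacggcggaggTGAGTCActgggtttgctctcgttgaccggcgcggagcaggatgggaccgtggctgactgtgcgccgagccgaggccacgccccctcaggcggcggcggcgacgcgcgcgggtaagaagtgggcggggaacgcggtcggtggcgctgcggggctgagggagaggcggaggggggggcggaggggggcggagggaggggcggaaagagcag
URB1-AS1 (chr21:32393013-32393132, plus strand): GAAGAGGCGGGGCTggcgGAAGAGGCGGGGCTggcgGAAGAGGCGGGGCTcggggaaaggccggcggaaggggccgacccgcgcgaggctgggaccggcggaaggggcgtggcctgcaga
ZBTB44-DT (chr11:130314918-130314992, plus strand): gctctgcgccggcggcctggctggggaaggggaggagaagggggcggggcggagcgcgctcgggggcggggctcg
POT1-AS1 (chr7:124929826-124929872, plus strand): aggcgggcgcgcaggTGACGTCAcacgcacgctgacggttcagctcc
TPT1-AS1 (chr13:45341184-45341344, plus strand): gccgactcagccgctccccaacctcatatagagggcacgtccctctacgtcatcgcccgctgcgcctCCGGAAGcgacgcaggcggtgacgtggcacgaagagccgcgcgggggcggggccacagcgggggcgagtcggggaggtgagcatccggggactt
ATP6V0E2-AS1 (chr7:149873863-149873968, minus strand): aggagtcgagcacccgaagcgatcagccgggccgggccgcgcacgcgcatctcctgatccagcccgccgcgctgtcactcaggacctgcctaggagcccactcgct

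The capitals in EIF3J-DT are an AP-1 motif (TGANTCA), those in POT1-AS1 a cyclic AMP response element (TGACGTCA) and those in TPT1-AS1 an ETS motif (CCGGAAG). The 6 stretches held 70.2% to 82.7% G and C. Motifs were counted on both strands in promoter windows of 300 bases, 250 before and 50 after a start, of which the table listed 350 for 305 of the 426 genes and 35116 in all. The ETS motif was in 9.71% of the noncoding genes' windows and 10.3% of all windows, and the AP-1 motif was in 6% and 7.71%. The E-box (CACGTG) was in 6.86% and 7.26%, the M-box (TCATGTG), which MITF can bind, in 4% and 2.92%, and the cyclic AMP response element in 1.43% and 1.85%. The amino acid response motif (TGATGNAAN) was in 2.57% and 3.61%, and the 10-base NRF1 motif, held by 1.24% of all windows, was in 0 of the 350. Median G and C content was 59.0% in the noncoding genes' windows and 58.7% in all windows, with 70.3% in those of the divergent genes. Of the noncoding genes' windows, the M-box was in 0 of 61 for genes that rose and 0 of 23 for genes that fell. It was in 14 of 266 for genes that were not called, and these counts were not tested.

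Of the 426 noncoding genes, 70 rose (16.4%, against 21.7% of all genes) and 32 fell (7.51%, against 24.9% of all genes). The other 324 were not called, so 23.9% were called against 46.6% of all genes. The median difference was 0.03, against -0.01 over all genes, and single genes ranged from -2.18 to 1.73. Changes of 2-fold or more were called higher in 15 and lower in 2 genes, where the shares over all genes were 3.81% and 5.4%. The 3 IDTC and 3 Parent values did not overlap in 118 genes (27.7%), against 54.1% of all genes. The count that fell was 20 without IDTC replicate 1, 19 without Parent replicate 2 and 21 without Parent replicate 3. Re-centring the arrays on the median of the tested genes gave 93 higher and 18 lower, so the share of calls that were higher was 83.8% in place of 68.6%. Over all genes the same re-centring gave 54.7% in place of 46.5%. Quantile normalization moved the noncoding genes' share the other way, to 60.5%, with 69 higher and 45 lower.

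**Figure D1:**
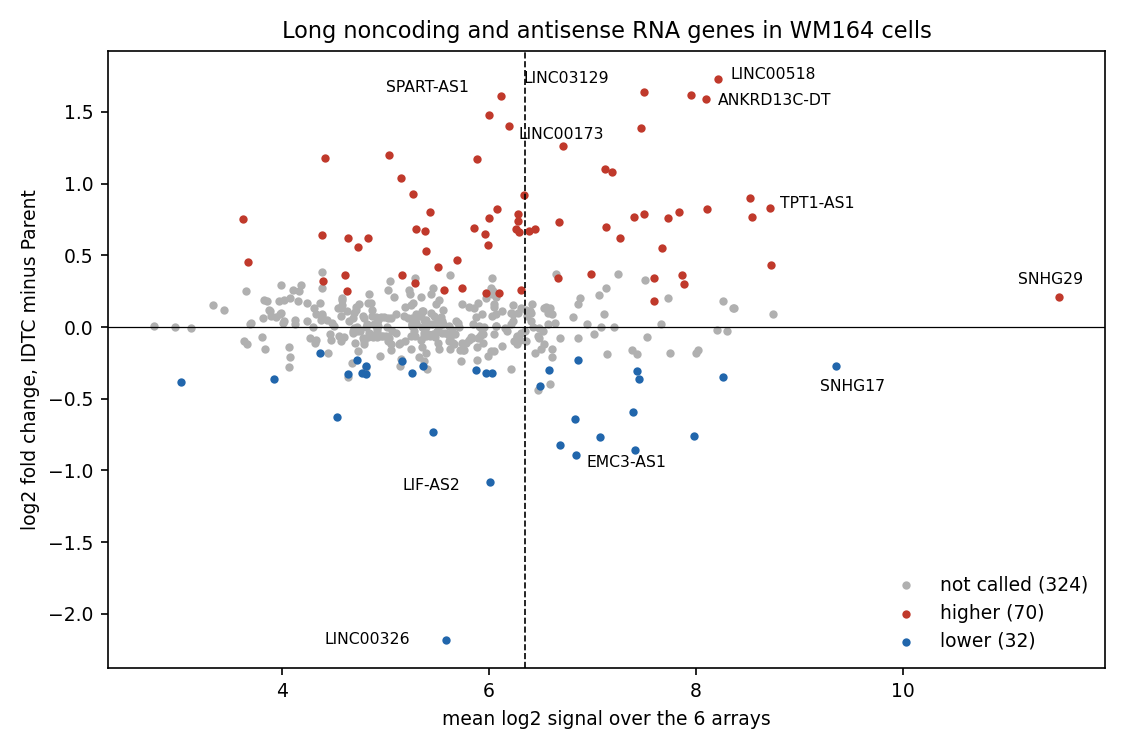
Log2 fold change (IDTC minus Parent, y axis) against mean log2 signal over the 6 arrays (x axis) for the 426 noncoding genes, each point a gene, with called genes coloured. The dashed line is the limit of the dimmest 40% of all genes at 6.35, most of the genes lie left of it, and LINC00326 stands lowest at -2.18.

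Most of these genes gave little signal. A gene is called dim here when its mean over the 6 arrays lay in the dimmest 40% of all genes, under 6.35, and 325 of the 426 (76.3%) were dim. Their median signal was 5.49, against 7.0 for all genes. Among the 325 dim noncoding genes 12.3% rose and 5.54% fell, and among all dim genes 12.4% rose and 6.56% fell. Among the 101 that were not dim, 30 rose (29.7%) and 14 fell (13.9%), while 27.9% of all genes that were not dim rose and 37.2% fell. The shares that rose were thus near the background at both signal levels, and the share that fell was below it among the brighter genes. The brighter sets were not matched for signal, with a median of 7.12 for the 101 noncoding genes and 8.22 for all genes that were not dim. Whether this difference in signal accounts for the lower share that fell was not tested. These shares are descriptions with no test. Of the 102 called genes 42 differed by less than 0.5, and 307 of all 426 differed by less than 0.25.

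**Figure D2:**
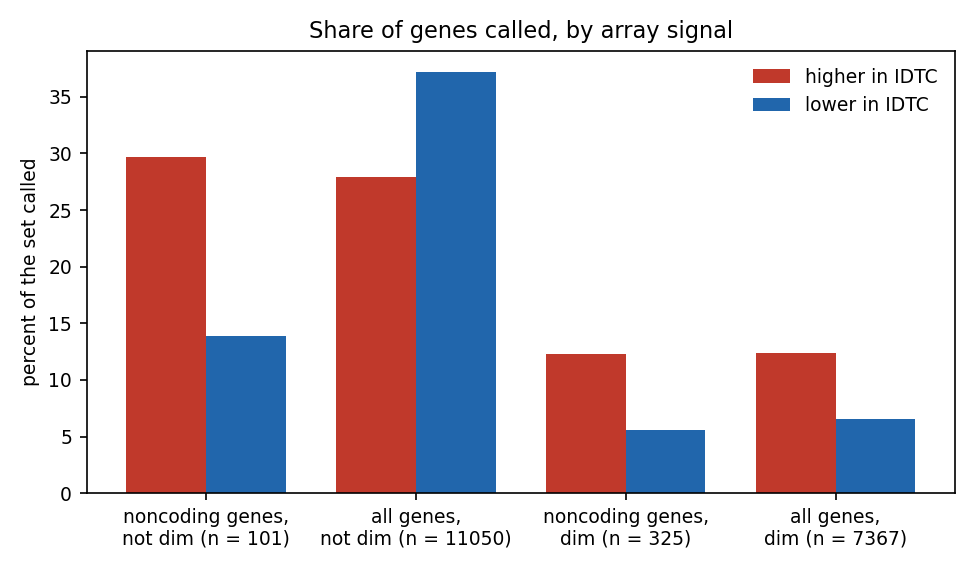
Percent of genes called higher (red) and lower (blue) in IDTC, for noncoding genes and for all genes, split at the dim limit. Bars start at 0. Among genes that were not dim, 13.9% of the noncoding genes and 37.2% of all genes fell, at median signals of 7.12 and 8.22.

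By kind, 36 of 206 LINC genes rose and 14 fell, 26 of 176 antisense genes rose and 14 fell, and 7 of 33 divergent genes rose and 3 fell. The called shares were 24.3%, 22.7% and 30.3%, each under the 46.6% of all genes. Among the 9 intronic genes limma called 0, with 1 at an unadjusted p under 0.05. Divergent genes were dim in 54.5% of cases, LINC genes in 80.1% and antisense genes in 76.7%.

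The SNHG genes with an unambiguous symbol were SNHG17 and SNHG29, both bright. On their brightest probe sets they moved in opposite directions by small amounts. The 1754 probe sets with several symbols were not used, so other SNHG genes may be on the array without a value here. SNHG29 gave 11.60, 11.60 and 11.65 in IDTC and 11.40, 11.38 and 11.45 in Parent, and rose by 0.21 ± 0.05 (limma adjusted p = 0.012). SNHG17 gave 9.27, 9.17 and 9.22 in IDTC and 9.40, 9.53 and 9.56 in Parent, and fell by 0.27 ± 0.06 (limma adjusted p = 0.0095). The groups did not overlap for either gene. After quantile normalization SNHG17 had -0.19 and was no longer called (limma adjusted p = 0.067). The other probe set of SNHG17 had a mean of 7.76 in IDTC and 8.82 in Parent, a larger fall of 1.06 ± 0.08. Its limma adjusted p was 3.8e-05 in a fit over all probe sets with 1 symbol.

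Of 7 other noncoding genes listed here as snoRNA hosts, 3 had a value. EPB41L4A-AS1 gave 8.97, 8.99 and 8.95 in IDTC and 8.06, 8.09 and 8.07 in Parent, a rise of 0.90 ± 0.05 (limma adjusted p = 5.8e-06). ZFAS1 rose by 0.41 ± 0.06, with every IDTC value above every Parent value. DLEU2, whose place in this list was not checked, had a difference of -0.12 and overlapping groups.

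The mRNAs of proteins that bind snoRNAs, or help to assemble them into particles (snoRNPs), moved downward as a group. Of 12 listed genes of this kind 10 had a value, and all 10 fell, with a median of -0.97. Of all genes 24.9% fell, and the median over all genes was -0.01. None of the 10 was dim, and among all genes that were not dim 37.2% fell and the median was -0.07. FBL, the methyltransferase of box C/D snoRNPs, gave 9.96, 10.00 and 10.04 in IDTC and 10.94, 10.85 and 10.86 in Parent. DKC1, the pseudouridine synthase of box H/ACA snoRNPs, fell by 1.61, and NOLC1, a chaperone of both kinds, fell by 1.83. Every IDTC value of these 3 genes lay below every Parent value.

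The LINC gene with the highest rise was LINC00518. It gave 9.20, 8.99 and 9.04 in IDTC and 7.28, 7.38 and 7.40 in Parent. The groups were far apart, and the difference of 1.73 ± 0.07 is a 3.31-fold rise (limma adjusted p = 1.9e-06). Its nearest measured coding neighbour is TFAP2A, a transcription factor of the neural crest, which rose by 2.40 ± 0.05.

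LINC03129 gave 8.36, 8.45 and 8.16 in IDTC and 6.62, 6.76 and 6.65 in Parent. This was a rise of 1.64 ± 0.09, while its neighbour VKORC1L1, of the vitamin K epoxide reductase family, fell by 0.99 ± 0.08. LINC00174 gave 8.09, 8.24 and 8.16 in IDTC and 6.71, 6.83 and 6.78 in Parent, a rise of 1.39 ± 0.06. LINC01089, which overlaps the histone methyltransferase gene SETD1B, gave 7.64, 7.62 and 7.74 in IDTC and 6.41, 6.59 and 6.72 in Parent. It rose by 1.10 ± 0.09, and SETD1B had a difference of 0.12 that was not called. In each of these LINC genes the lowest IDTC value was above the highest Parent value.

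The other 4 of the 8 highest LINC genes were dim. LINC00173 gave 6.65, 7.08 and 6.94 in IDTC and 5.45, 5.66 and 5.36 in Parent, a rise of 1.40 ± 0.13. LINC02903 rose by 1.20 ± 0.20 and LINC00910 by 0.92 ± 0.09, both with separate groups, though the dimmer probe set of LINC00910 had 0.06 and was not called. LINC00314 gave 4.42, 5.04 and 5.55 in IDTC and 3.66, 4.44 and 3.37 in Parent, so its groups overlapped, and its other 2 probe sets had 0.44 and 0.25 and were not called. Its difference of 1.18 ± 0.34 was called at a limma adjusted p of 0.025, and the call was lost without IDTC replicate 2 or 3 and without Parent replicate 1 or 3 (adjusted p = 0.072 to 0.093).

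LINC00326 had the largest change of the 426 genes in either direction. It gave 4.45, 4.65 and 4.38 in IDTC and 6.84, 6.53 and 6.64 in Parent. The fall of 2.18 ± 0.10 is 4.52-fold (limma adjusted p = 2.8e-06), with all IDTC values below all Parent values. Its mean over the 6 arrays was dim. The neighbouring coding gene EYA4, a transcriptional coactivator, fell by 1.15 ± 0.11.

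LINC00504 gave 6.99 on every IDTC array and 7.78, 7.92 and 7.83 on the Parent arrays. It fell by 0.86 ± 0.06, while its neighbour CPEB2, an RNA-binding regulator of translation, rose by 0.64 ± 0.06. LINC01711 fell by 0.82, LINC00467 by 0.77 and LINC01366 by 0.64, none of them dim and each with separate groups. Their neighbours APCDD1L, TRAF5 and KCNIP1 were not called, with differences of -0.01, 0.16 and -0.04. LINC02915, which was dim, fell by 0.63 ± 0.12. The last of the 8 lowest, LINC02487 at -0.36 and LINC01101 at -0.33, were dim, and each lost its call without IDTC replicate 1 or 2 or Parent replicate 2 and under some other settings.

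Some LINC values rest on probe sets that cannot be tied to a single locus. LINC01296 rose by 0.77 ± 0.09, and its probe set also lists a transcript of DUXAP9, a pseudogene. LINC00965 was read by 26 probe sets, which differed by 0.75 to 0.91, all in the same direction. In 18 genes more than 1 probe set carried the symbol. The probe sets of PRDM16-DT (-0.08 to 0.37) and LINC01547 (-0.06 to 0.02) differed in sign, and neither gene was called.

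**Figure D3:**
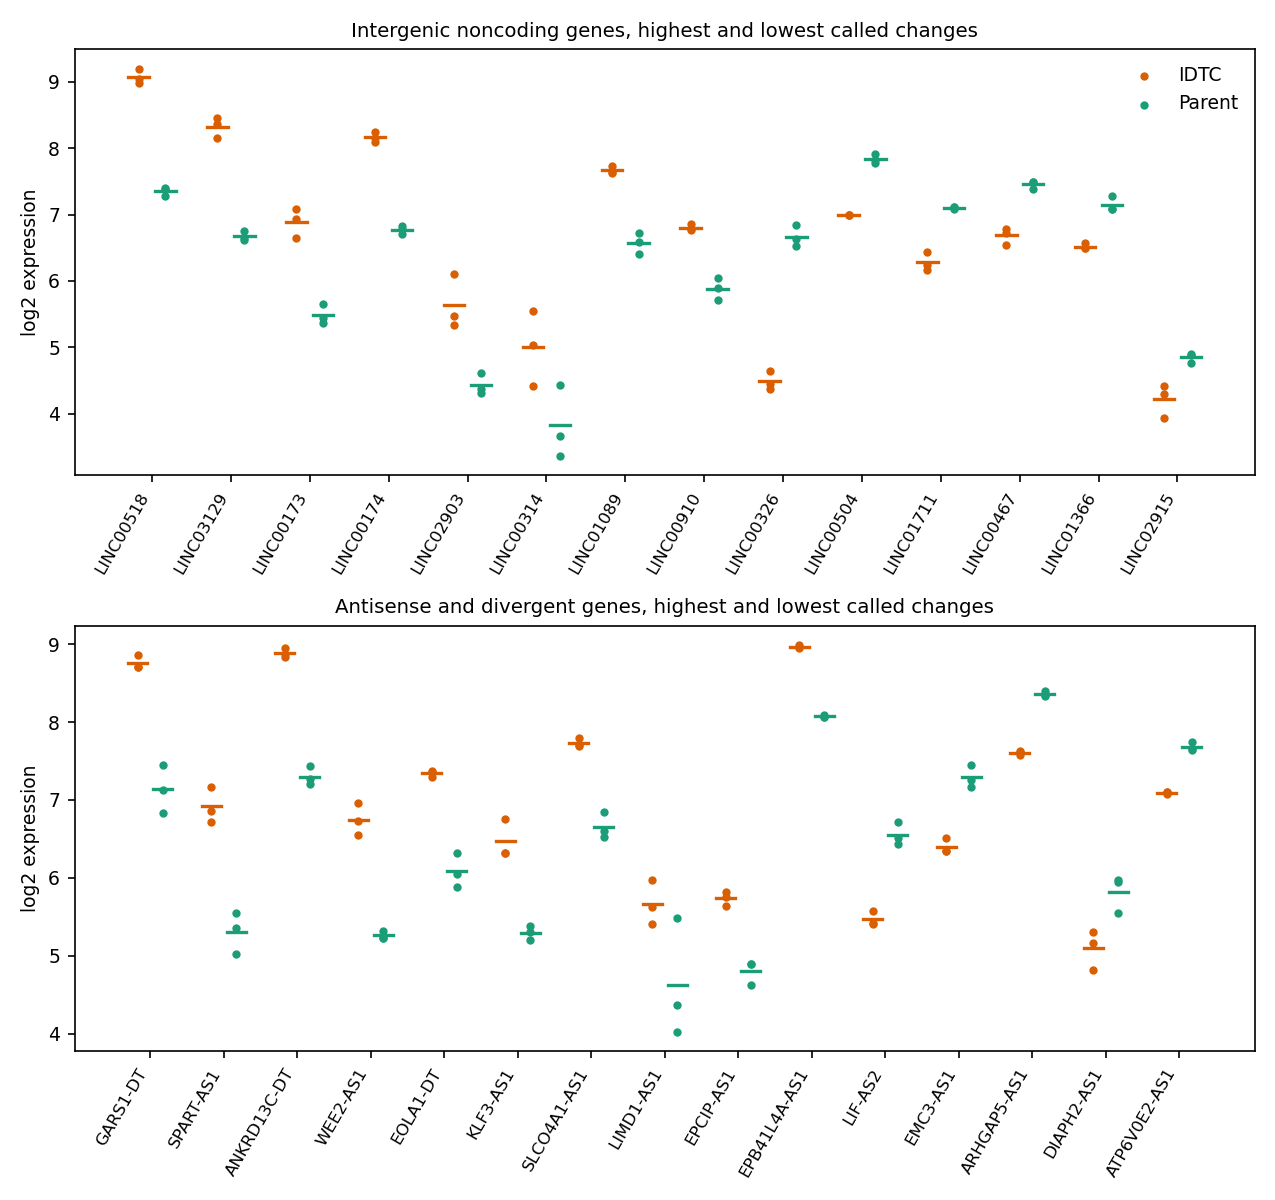
Log2 expression on each array for intergenic genes (top) and antisense and divergent genes (bottom) among the highest and lowest called changes, with IDTC points left of Parent points and a bar at each group mean (n = 3 per group). LINC00314 and LIMD1-AS1 are the genes shown whose groups overlap.

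Among antisense and divergent genes the 3 highest rises belonged to genes whose coding partner hardly moved. GARS1-DT gave 8.86, 8.71 and 8.71 in IDTC and 7.13, 6.83 and 7.45 in Parent, a rise of 1.62 ± 0.15 (limma adjusted p = 6.9e-05). GARS1, the glycyl-tRNA synthetase, differed by 0.15 and was not called (limma adjusted p = 0.055, called under 5 alternative settings). The IDTC values of GARS1-DT all lay above its Parent values.

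SPART-AS1, which was dim, gave 7.17, 6.86 and 6.72 in IDTC and 5.55, 5.02 and 5.36 in Parent. It rose by 1.61 ± 0.16. SPART, whose product spartin works at endosomes and lipid droplets, differed by 0.24 and was not called (limma adjusted p = 0.088). The groups were separate for SPART-AS1 and overlapped for SPART.

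ANKRD13C-DT gave 8.95, 8.87 and 8.84 in IDTC and 7.43, 7.20 and 7.27 in Parent. Its rise was 1.59 ± 0.07 (3.01-fold, limma adjusted p = 2.9e-06). ANKRD13C rose by 0.18 ± 0.06 (limma adjusted p = 0.039) and was no longer called when any single array other than IDTC replicate 3 was left out. The starts of this pair lie 89 bases apart.

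EOLA1-DT gave 7.30, 7.37 and 7.36 in IDTC and 6.05, 5.88 and 6.32 in Parent, and rose by 1.26 ± 0.11. EOLA1 itself gave 7.91, 7.97 and 8.14 in IDTC and 7.83, 7.99 and 8.08 in Parent, which overlap. WEE2-AS1, whose partner has no value here, rose by 1.48 ± 0.10 and was dim. KLF3-AS1, which was dim, rose by 1.17 ± 0.12, and KLF3, a transcriptional repressor of the Krüppel-like family, rose by 0.92 ± 0.06.

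Other rises among the 12 highest were smaller. EPCIP-AS1, which was dim, rose by 0.93 ± 0.09, with EPCIP at 0.13 and not called. LIMD1-AS1, which was dim, gave 5.41, 5.62 and 5.97 in IDTC and 5.49, 4.02 and 4.37 in Parent, which overlap. It was called at 1.04 ± 0.35 (limma adjusted p = 0.046) and lost the call without any single array except Parent replicate 1. TPT1-AS1, one of the 5 brightest of the 426 genes, gave 9.20, 9.21 and 8.99 in IDTC and 8.54, 8.21 and 8.15 in Parent and rose by 0.83 ± 0.12. TPT1, the translationally controlled tumour protein, rose by 0.22 ± 0.05 on its brightest probe set, but had -0.13 as the mean of its probe sets and was not called without Parent replicate 3. ASB16-AS1 rose by 0.43 ± 0.07, and LINC00839, the other of the 5 brightest, had 0.09 ± 0.06 and was not called.

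The lowest antisense gene was LIF-AS2, beside the cytokine gene LIF. LIF gave 4.79, 4.63 and 4.86 in IDTC and 9.87, 9.88 and 9.90 in Parent, a fall of 5.13 ± 0.07 (34.9-fold). The IDTC values of LIF lie under the dim limit of 6.35, and with no detection call the size of this fall may be understated. LIF-AS2, which overlaps LIF in the annotation, gave 5.41, 5.57 and 5.42 in IDTC and 6.43, 6.72 and 6.51 in Parent, a fall of 1.08 ± 0.09 (limma adjusted p = 4.2e-05). Both genes had separate groups, and LIF-AS2 was dim by its mean over the 6 arrays. The sources used here do not say whether the probe sets of overlapping genes read only 1 strand, so the signal of a gene and that of its antisense partner cannot be told apart with certainty.

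ARHGAP5-AS1 fell without its partner. It gave 7.63, 7.61 and 7.58 in IDTC and 8.34, 8.35 and 8.40 in Parent, a fall of 0.76 ± 0.05. ARHGAP5 gave 9.38, 9.27 and 9.19 in IDTC and 9.41, 9.22 and 9.23 in Parent, and the groups overlapped.

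EMC3-AS1 fell by 0.89 ± 0.09 and EMC3, of the endoplasmic reticulum membrane complex, by 0.36 ± 0.07. DIAPH2-AS1, which was dim, fell by 0.73 ± 0.16 and DIAPH2, a formin, by 0.72 ± 0.18. ATP6V0E2-AS1 fell by 0.59 ± 0.05 and ATP6V0E2, a subunit of the vacuolar proton pump, by 0.52 ± 0.06. In these 3 pairs the coding and noncoding genes thus fell together.

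The remaining falls among the 12 lowest lay between -0.41 and -0.32. MATN1-AS1 fell by 0.41, DLGAP1-AS1 by 0.36 and RHPN1-AS1 by 0.35, and none of the 3 was dim. PARM1-AS1 (-0.38), HOXA-AS2 (-0.33) and CEBPA-DT (-0.32) were dim, and each lost its call when any 1 of several arrays was left out or the arrays were re-centred on the tested genes. ZBTB44-DT and CIRBP-AS1 are described with their partners below.

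A partner gene named by the symbol had a value for 196 of the 218 antisense, divergent and intronic genes. Whether every partner is a coding gene was not checked. In 84 pairs neither gene was called, in 70 only the partner and in 20 only the noncoding gene. Both were called in 22 pairs, 14 the same way (10 higher, 4 lower) and 8 in opposite directions. Of the 196 partners 46 rose and 46 fell, while 29 of the noncoding genes rose and 13 fell. The partners were thus called in 46.9% of cases, near the 46.6% of all genes, and the noncoding genes in 21.4%. The noncoding gene was not dim in only 52 of the 196 pairs. Of all dim genes 19% were called, and of all genes that were not dim 65%. Across the pairs the differences correlated at Pearson r = 0.20 and a Spearman coefficient of 0.16. The pairs share the same arrays, and the coefficients are descriptions across genes with no test.

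**Figure D4:**
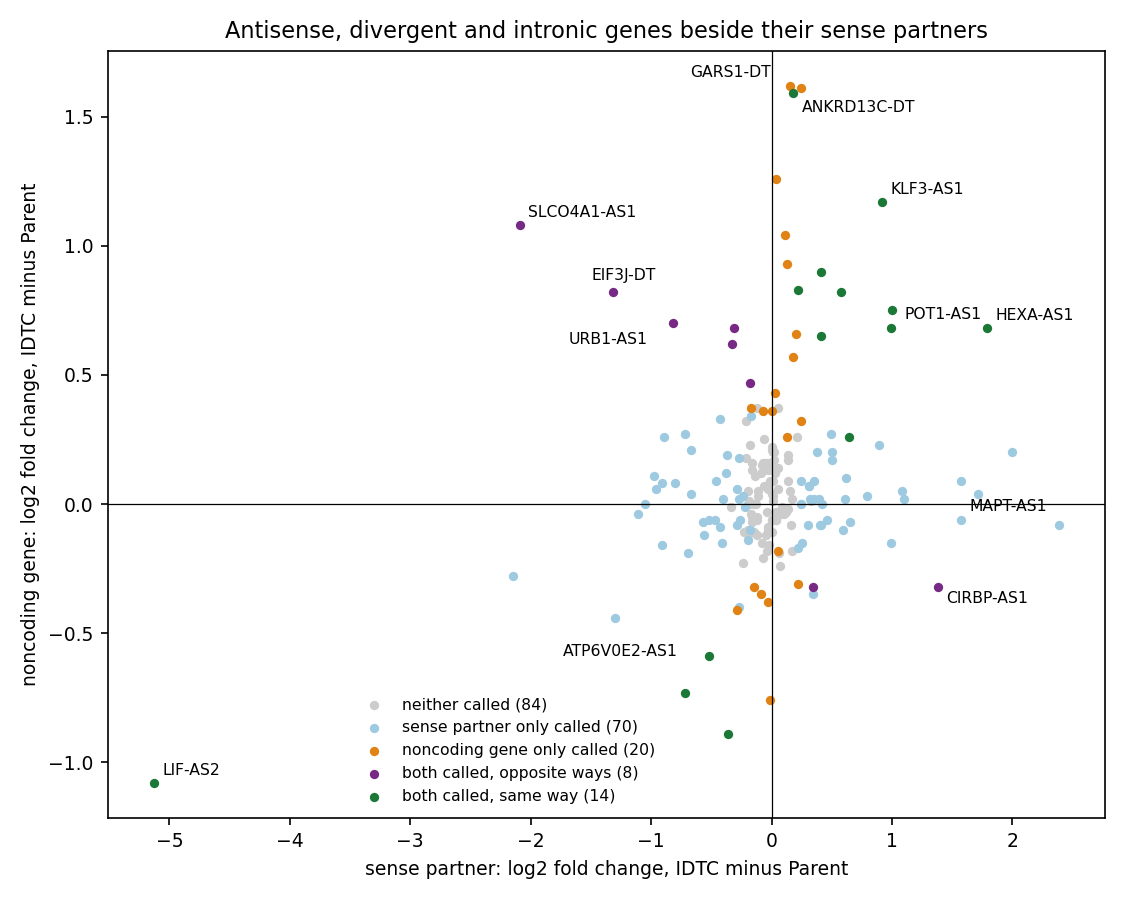
Log2 fold change (IDTC minus Parent) of the noncoding gene (y axis) against that of its named partner (x axis) for 196 pairs. Each point is a pair, coloured by which of the genes were called. The 14 green pairs changed the same way, the 8 purple pairs in opposite directions, and LIF-AS2 with LIF stands apart at the lower left.

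The promoter table placed all but 74 of these pairs. In 68 the starts lay within 1000 bases of each other on opposite strands, and 7 of these were called the same way, 5 in opposite directions, 7 in the noncoding gene only and 24 in the partner only. In 50 pairs with starts farther apart on opposite strands, 2 were called the same way and 0 in opposite directions. Another 4 pairs lay on the same strand. The 1000-base limit was chosen after values had been seen, and the counts were not tested against each other.

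EIF3J-DT and EIF3J moved apart. EIF3J-DT gave 8.67, 8.53 and 8.37 in IDTC and 7.73, 7.62 and 7.74 in Parent, a rise of 0.82 ± 0.09. EIF3J, a subunit of translation initiation factor 3, gave 8.40, 8.36 and 8.24 in IDTC and 9.73, 9.60 and 9.63 in Parent, a fall of 1.32 ± 0.07 (limma adjusted p = 4.1e-06). Neither gene had overlapping groups. Their starts lie 224 bases apart, across the stretch with the AP-1 motif shown above.

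URB1-AS1 gave 7.45, 7.45 and 7.55 in IDTC and 6.71, 6.82 and 6.81 in Parent, a rise of 0.70 ± 0.06. URB1, a ribosome biogenesis factor, gave 7.58, 7.54 and 7.26 in IDTC and 8.25, 8.25 and 8.36 in Parent, a fall of 0.82 ± 0.09. All IDTC values were above Parent in the first gene and below in the second. The starts are 121 bases apart, with the repeated word between them.

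SLCO4A1-AS1 and SLCO4A1 had the largest gap of the opposite pairs. SLCO4A1-AS1 gave 7.69, 7.71 and 7.80 in IDTC and 6.52, 6.84 and 6.60 in Parent, a rise of 1.08 ± 0.09. SLCO4A1, an organic anion transporter, gave 7.55, 7.25 and 7.23 in IDTC and 9.48, 9.33 and 9.49 in Parent, a fall of 2.09 ± 0.10 (4.27-fold). The annotation has these 2 genes overlapping.

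The reverse arrangement was found in 2 pairs. CIRBP, the cold-inducible RNA-binding protein, gave 11.16, 11.18 and 11.16 in IDTC and 9.72, 9.81 and 9.82 in Parent, a rise of 1.38 ± 0.05. CIRBP-AS1, which was dim, gave 5.86, 5.68 and 6.06 in IDTC and 6.17, 6.17 and 6.23 in Parent, a fall of 0.32 ± 0.09 that was lost without any 1 array except IDTC replicate 3. ZBTB44 rose by 0.34 ± 0.09 and the dim ZBTB44-DT fell by 0.32 ± 0.10 (limma adjusted p = 0.038), a call lost without IDTC replicate 1 or any Parent array; the ZBTB44 call was lost without IDTC replicate 2. Re-centring on the tested genes ended both noncoding calls.

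Of the other opposite pairs, the dim STARD7-AS1 rose by 0.68 and STARD7, a lipid transfer protein, fell by 0.31. LIPT2-AS1 rose by 0.62 and LIPT2, a lipoyltransferase, fell by 0.33. The dim EDRF1-DT rose by 0.47 and EDRF1 fell by 0.18. The EDRF1 call was lost under every scaling alternative, and the EDRF1-DT call without Parent replicate 1 or 2.

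**Figure D5:**
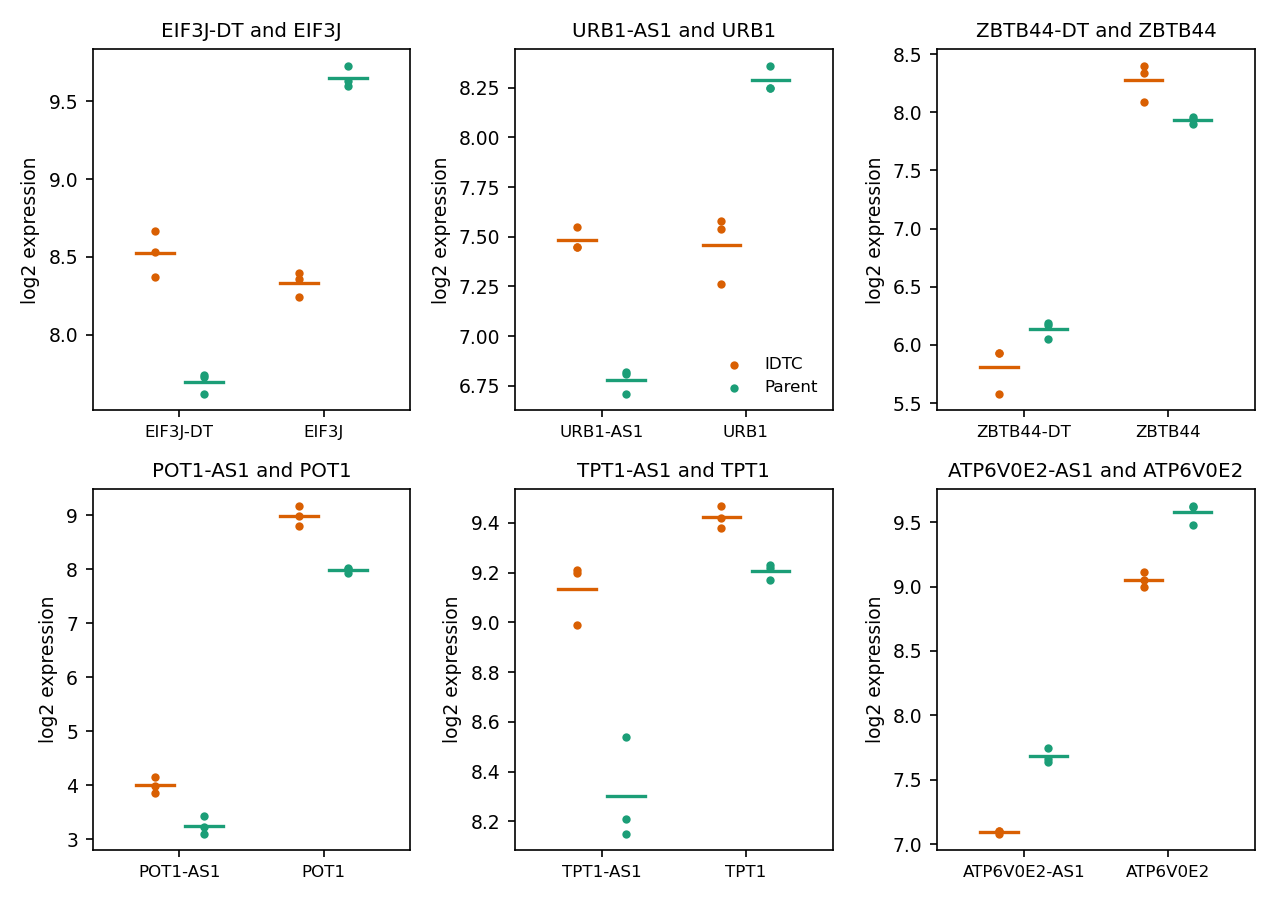
Log2 expression on each array for 6 pairs with close starts, the noncoding gene left and its coding partner right in each panel, with IDTC points left of Parent points and a bar at each group mean (n = 3 per group). The upper 3 pairs moved in opposite directions and the lower 3 in the same direction; y axes differ between panels.

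Among pairs that rose together, HEXA, a subunit of a lysosomal hexosaminidase, gave 11.28, 11.23 and 11.19 in IDTC and 9.47, 9.40 and 9.47 in Parent, a rise of 1.79 ± 0.05. HEXA-AS1, which was dim, gave 5.53, 5.75 and 5.63 in IDTC and 4.93, 5.08 and 4.86 in Parent, a rise of 0.68 ± 0.08. POT1, a protein of the telomere cap, rose by 1.00 ± 0.10 and the very dim POT1-AS1 by 0.75 ± 0.11, with starts 48 bases apart. In each of these pairs every IDTC value exceeded every Parent value.

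TMEM51-AS1 (0.82) rose with TMEM51 (0.58), though its other 2 probe sets had 0.66 and 0.11 and were not called. WDFY3-AS2 (0.65) rose with WDFY3 (0.41). VLDLR-AS1 (0.26) rose with VLDLR (0.64), the receptor of very low density lipoprotein. ZNF503-AS2 (0.68, overlapping groups) was called with ZNF503 (0.99), and the antisense call was lost without any 1 array except IDTC replicate 2. VLDLR-AS1 lost its call without IDTC replicate 1 or Parent replicate 2, and WDFY3 lost its own without IDTC replicate 1 or 2 or Parent replicate 2 or 3. EPB41L4A-AS1 rose with the dim EPB41L4A (0.41). TMEM51-AS1, WDFY3-AS2 and VLDLR-AS1 were dim, while ZNF503-AS2 and EPB41L4A-AS1 were not.

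Several strongly changed coding genes had a noncoding partner that was not called. MAPT, the microtubule protein tau, gave 8.37, 8.30 and 8.16 in IDTC and 6.71, 6.75 and 6.67 in Parent, a rise of 1.57 ± 0.07, while MAPT-AS1 gave 5.34, 5.35 and 5.50 in IDTC and 5.46 on each Parent array. FOXN3 rose by 2.39 with FOXN3-AS2 at -0.08, and CPS1, the first enzyme of the urea cycle, rose by 2.00 with CPS1-IT1 at 0.20. ELOVL2, a fatty acid elongase, fell by 2.15 with ELOVL2-AS1 at -0.28. All 4 of these noncoding genes were dim, and of all dim genes 19% were called. RALGPS2-AS1 (0.04) and TOX-DT (0.09) were not dim and were not called, where RALGPS2 rose by 1.71 and TOX by 1.57.

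Of 26 other known noncoding RNAs listed, 12 had a value, all with names outside the rule. Of these 12, 6 were higher and 1 lower, where 21.7% of all genes were higher and 24.9% lower. TUG1 gave 11.74, 11.66 and 11.61 in IDTC and 10.38, 10.52 and 10.52 in Parent, a rise of 1.19 ± 0.06. TP53TG1 rose by 1.47, RPPH1, the RNA of ribonuclease P, by 1.04, DLEU1 by 0.80, the dim JPX by 0.57 and MALAT1 by 0.52. MIR17HG, the host transcript of the miR-17-92 microRNAs, gave 5.16, 5.21 and 4.96 in IDTC and 7.14, 7.13 and 7.16 in Parent, a fall of 2.03 ± 0.07. MIR17HG was dim by its mean over the 6 arrays. The median over the 12 was 0.33.

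Noncoding transcripts are degraded in the nucleus by the RNA exosome and in the cytoplasm by nonsense-mediated decay. Of 16 exosome and cofactor genes 9 fell and 3 rose, with a median of -0.39. None of the 16 was dim, and among all genes that were not dim 37.2% fell and 27.9% rose. EXOSC9, EXOSC4 and EXOSC2, subunits of the exosome core, fell by 1.16, 1.14 and 1.05. Among catalytic subunits EXOSC10 rose by 0.26 and DIS3 fell by 0.38. The cofactors ZCCHC8 and ZFC3H1 rose by 0.58 and 0.53, and the cofactor MTREX fell by 0.72. Of 12 nonsense-mediated decay genes, none of them dim, 6 fell and 2 rose, with a median of -0.26. The median over all genes that were not dim was -0.07, and neither list was tested against this background. RBM8A, of the exon junction complex, fell by 0.90, and the endonuclease SMG6 rose by 0.60.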

How the data were processed

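The deposited table holds log2 expression values that the authors had already normalized. Affymetrix Expression Console, RMA and Partek 6.6 are listed, with no role given, per the submitters' processing notes. The medians of the IDTC arrays were 6.29, 6.29 and 6.36 and those of the Parent arrays 6.25, 6.32 and 6.32, and the interquartile ranges were 3.31 to 3.49 and 3.51 to 3.60. There is no detection call, so the fold change of a dim gene may be understated.

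Of 33297 probe sets, 21214 had a gene in the platform annotation, 19460 of them 1 symbol and 1754 several, which were not used. The brightest probe set stood for a gene. Groups came from the sample titles. The linear model and empirical Bayes test of limma 3.58.1 (2-sided, run under R 4.3.3) compared IDTC with Parent over 18417 genes, with no covariate. On simulated data it recovered 60% of genes changed by 0.5 log2 and 90% of those changed by 1, of 50 each, and called 14 unchanged genes. Only 50 genes at each size tried were changed there, a far smaller share of the 18417 than the 46.6% called in the real data. The adjusted p depends on that share, so these rates may differ in the real fit.

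The noncoding genes, lists and rules were chosen with earlier results of these data known. Named were both SNHG genes, the 8 highest and 8 lowest called LINC genes, the 12 highest and 12 lowest called antisense, divergent or intronic genes with partners, SLCO4A1-AS1, EPB41L4A-AS1 and MAPT-AS1, the 4 widest opposite pairs and the 5 brightest genes. Other pairs, the printed stretches, the motifs and the reading of every listed start were chosen after values were seen. A partner is the symbol without its suffix. Neighbours came from RefSeq GRCh38.p14. The files name no genome build. The alternatives tried were 2 re-centrings, quantile normalization, a filter on dim genes, other probe set rules, a trended and robust prior, a replicate block, each array left out, stricter thresholds and parts of the name rule.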

Additional observations from a re-analysis of the deposited data

How the results depend on the processing

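The main counts were 70 noncoding genes higher, 32 lower, 1 SNHG gene lower and 14 pairs called the same way. Re-centring on the tested genes, an alternative chosen after seeing the data, gave 93 higher and 18 lower. Re-centring on all probe sets gave 73 and 39, and quantile normalization gave 69 and 45 with 0 SNHG genes lower. Leaving out the dimmest 40% of genes left 101 noncoding genes with 34 higher, 20 lower and 8 pairs, and testing all probe sets gave 21 lower. Without single arrays the counts were 53 to 75 higher and 19 to 42 lower. At an adjusted p under 0.01 there were 17 lower and 8 pairs, and at 2-fold or more 15 higher, 2 lower, 0 SNHG genes and 1 pair. LINC and SNHG names alone gave 37 higher and 15 lower, and the suffixed names alone 33 and 17. The replicate block gave 79 higher and 34 lower. Same-numbered arrays deviated with r = 0.315, -0.192 and 0.260, and differently numbered arrays with r from -0.473 to 0.372. Deviations from a mean of 3 arrays depend on each other, so these values cannot settle whether the numbers mark a pairing. Of 101 named genes 88 were called, and 70 kept the call under every alternative in which they were tested; for 52 that was all 14, and for 18 it was 13, since the filter on dim genes left them out. Uncalled partners changed sign: ARHGAP5 had 0.07 after quantile normalization, 0.05 re-centred on the tested genes and -0.06 to 0.05 without single arrays. Without single arrays ASB16 ranged from -0.10 to 0.13, EOLA1 from -0.03 to 0.09 and PARM1 from -0.07 to 0.00, and PARM1 had 0.03 when re-centred on the tested genes. MAPT-AS1 had 0.00 when re-centred so, and TPT1 had -0.13 as the mean of its probe sets; the cause was not tested.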
